A study of Arabidopsis thaliana with 32 samples.

Results

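Seedlings that had been at 30 °C for 6 h were compared between low red to far-red light (low R/FR, the light under a leaf canopy) and plain white light, across all expressed genes. The tested libraries were the 2 of 30FR, white light with added far-red at an R/FR of 0.6, and the 2 of 30WL, white light, which makes 4 of the 32 libraries of the experiment. All plants were wild-type Arabidopsis thaliana of the Columbia accession (Col-0), grown for 3 days in constant white light at 21 °C before the move. Each library came from the poly(A) RNA of a pool of whole seedlings, and a replicate is an independent pool of plants. The other libraries used below are 21FR and 21WL at 6 h, which received the same light change without warming (21FR) or stayed as they were (21WL), and 30FR and 30WL at 1, 3 and 24 h. Whole seedlings mix organs, so that fewer cells of a type and less RNA per cell cannot be told apart.

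Plants read shade through phytochromes, photoreceptors that far-red light returns to their inactive form. Active phytochrome B restrains the PHYTOCHROME INTERACTING FACTORS (PIFs), basic helix-loop-helix (bHLH) transcription factors that bind G-box sequences and switch on growth genes. Warmth also lowers the activity of phytochrome B. Among the best known PIF targets are auxin synthesis genes of the YUCCA family, auxin-responsive genes of the Aux/IAA and SAUR families, the homeodomain gene ATHB2, and PIL1 and HFR1, whose products act in the same pathway, HFR1 as a brake on the PIFs.

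The 4 libraries held between 7606788 and 26957088 reads counted on genes. Replicate 1 of 30WL stood apart as the shallowest of all 32 libraries and the one where reads with several alignments took the largest share of the table, 50.4%. That share was 28.3 and 13.8% in 30FR, against 50.4 and 38.8% in 30WL, so that it moved with the light condition. Its part in the results was not tested. Replicates of 30FR and of 30WL had Spearman correlations of 0.9905 and 0.987 over the genes tested. Root markers summed to 265 and 262 CPM (counts scaled to a common library size) in 30FR, against 269 in both libraries of 30WL, and 0 of the 15 were called. The 42 photosystem, antenna and Rubisco small subunit genes summed to 115400 and 105900 CPM in 30FR, against 105900 and 111000 CPM in 30WL, with 0 called. Seed storage and oil body genes, remains of the seed, summed to no more than 9.15 CPM in any of the 4 libraries.

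A small set of genes responded to low R/FR in the warm seedlings, and most of it rose. Of 20145 genes tested, 33 were higher and 10 lower in 30FR than in 30WL, which is 0.164% and 0.0496% of the genes (edgeR's quasi-likelihood test, called at a Benjamini-Hochberg false discovery rate, FDR, under 0.05 and an absolute log2 fold change over 1). The largest increase was that of PIL1, at 34.7-fold, followed by IAA29, SAUR22 and HFR1. In all, 13 of the higher genes rose by more than 2 on the log2 scale and 8 by more than 3, whereas 3 of the lower genes fell by more than 2. The libraries of 30FR and 30WL did not overlap in any of these 43 genes, as in 35.4% of all genes tested. A further 42 genes had an FDR under 0.05 with a smaller change, and the median log2 fold change of all genes tested was 0.01.

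**Figure D1:**
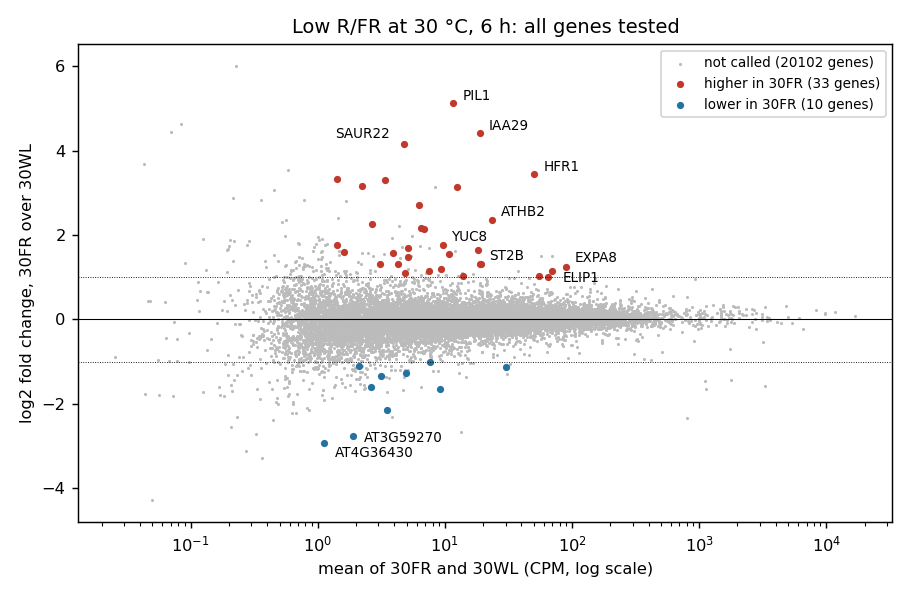
Each point is 1 of the genes tested, with the mean of 30FR and 30WL at 6 h on the horizontal axis (CPM, log scale) and the log2 fold change of 30FR over 30WL on the vertical axis; red points are the 33 genes called higher, blue points the 10 called lower, and dotted lines mark log2 fold changes of 1 and -1. The called genes lie at low to middle expression, and those with the largest increases stand well above the bulk.

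With 2 pools in each condition, these counts leaned on single libraries and on the spread shared with the rest of the experiment. Without replicate 1 of 30WL, 16 genes were called higher and 4 lower, among them 15 of the 33 and 3 of the 10. Without replicate 2 of 30WL the counts were 6 and 1, without replicate 1 of 30FR 8 and 3, and without replicate 2 of 30FR 37 and 6, the library left alone being assumed to vary like the other groups. All 43 genes kept their direction in each of these fits. PIL1, IAA29, HFR1, ATHB2, ST2B and the lower gene AT3G59270 were called in all 4. With the 8 libraries of 6 h fitted alone, 7 genes were called higher and 2 lower. In 30FR, replicate 1 was above replicate 2 in all 33 higher genes, by a median of 1.41-fold, whereas this held for 50.6% of all genes tested. The same order was found in 29 of the 33 genes in 21FR and in 22 of the 33 in 30WL.

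PIL1 (AT2G46970), a bHLH gene long used as a marker of shade, was measured at 24.9 and 20.3 CPM in 30FR, against 0.742 and 0.591 CPM in 30WL, where it rested on 15 reads in all. Its log2 fold change was 5.12 ± 0.31 (SE) with an FDR of 2.27e-09. HFR1 (AT1G02340), which encodes an atypical bHLH protein that binds PIFs and limits them, stood at 98.8 and 86.8 CPM in 30FR, against 6.80 and 9.84 CPM in 30WL, a 10.8-fold increase (log2 fold change 3.44 ± 0.26, FDR 1.38e-07). These were the 2 called members of a list of 5 HLH genes, namely HFR1, PAR1, PAR2, PIL1 and PIF6. The others lay between log2 fold changes of 0.25 for PAR2 and 1.05 for PIF6 (PIL2 in the annotation), and none passed the test. Next to HFR1, in the opposite orientation and 1937 bases away, AT1G02350 was higher as well, at 2.68 and 1.76 CPM in 30FR, against 0.618 and 0.656 CPM in 30WL (log2 fold change 1.77 ± 0.36, FDR 0.0259). It was named after its values were seen, rests on 15 reads in 30WL and was called in 1 of the 4 fits with a library left out, that without replicate 2 of 30FR, with FDRs of 0.174 to 0.376 in the others.

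The G-box, CACGTG, is the sequence that PIFs bind most readily, and the regions before these genes are shown for the places where it recurs. In the 1500 bases before the start of the gene in the RefSeq annotation (TAIR10.1), it was found in 14 of the 33 higher genes (42.4%) and 2 of the 10 lower genes (20%), against 21% of the 20034 windows that could be read for the genes tested. At least 2 copies were found in 6 of the higher genes (18.2%), against 4.34% of all windows. The related element CACATG, searched on both strands and therefore also as CATGTG, was found in 26 of the higher genes (78.8%) and 3 of the lower (30%), against 51.8% of all windows. The members were chosen with their response known, neighbouring genes share windows in part, so that the same copies count for both HFR1 and AT1G02350, for SAUR20 and AT5G18030, and for SAUR22 and SAUR23, and a match is a description of letters, not of a bound site. PIL1 holds 3 G-boxes, 1222, 1211 and 1093 bases before its start. The 2 before HFR1 (1419 and 1000 bases) lie 524 and 943 bases before AT1G02350. YUC8 has 2, at 484 and 448 bases, and YUC9 2, at 1130 and 1098 bases. AT5G12050, not printed and named after its values were seen, holds G-boxes 1362, 1261, 1224 and 1212 bases before its start. Copies of either element are in capitals, and each stretch reads 5′ to 3′ on the strand of the gene.
PIL1, chr2:19298926-19299100, minus strand: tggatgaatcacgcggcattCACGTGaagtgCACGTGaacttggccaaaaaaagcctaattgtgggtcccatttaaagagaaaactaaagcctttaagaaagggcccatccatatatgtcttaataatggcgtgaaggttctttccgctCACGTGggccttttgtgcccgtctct
HFR1, chr1:469274-469319, minus strand: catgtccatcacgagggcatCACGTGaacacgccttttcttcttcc
HFR1, chr1:468855-468900, minus strand: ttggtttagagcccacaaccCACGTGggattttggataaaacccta
YUC8, chr4:14192065-14192146, plus strand: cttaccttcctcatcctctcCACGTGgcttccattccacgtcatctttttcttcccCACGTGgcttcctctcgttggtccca
YUC9, chr1:1103343-1103420, plus strand: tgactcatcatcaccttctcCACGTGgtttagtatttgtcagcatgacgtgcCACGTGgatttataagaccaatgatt

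Among the 10 measured genes of the class II homeodomain-leucine zipper (HD-Zip II) family, ATHB2 (AT4G16780, listed as HB-2), which promotes elongation in shade, was the 1 called. It was measured at 45.5 and 32.3 CPM in 30FR, against 8.41 and 7.02 CPM in 30WL (log2 fold change 2.35 ± 0.19, FDR 2.16e-07). Its relatives ATHB4 (5.35 and 3.999 CPM in 30FR, against 3.46 and 2.0999 CPM in 30WL) and HAT2 (35.8 and 26.3 CPM in 30FR, against 22.3 and 19.8 CPM in 30WL) did not overlap between conditions, and had FDRs of 0.286 and 0.112. In all, 4 members of the family had both libraries of 30FR above 30WL, and 3 (HAT14, HAT22 and HB17) had both below. Over all genes tested, 35.4% did not overlap in either direction. The family's median log2 fold change was 0.12. No CACGTG or CACATG was found in the window before ATHB2, whose promoter the study shows as bound by PIF7.

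The PIFs were not called in either direction. PIF4 transcripts stood at 79.5 and 79.8 CPM in 30FR, against 81.6 and 74.1 CPM in 30WL, and those of PIF5 (PIL6 in the annotation) at 75.2 and 75.8 CPM in 30FR, against 77.2 and 76.0 CPM in 30WL. PIF7 had 16.01 and 16.07 CPM in 30FR, against 23.1 and 23.9 CPM in 30WL, with a log2 fold change of -0.55 ± 0.18 and an FDR of 0.321. PIF8 (UNE10 in the annotation) had the largest difference of the 6 in this list. It stood at 86.4 and 72.2 CPM in 30FR, against 49.6 and 47.3 CPM in 30WL, with a log2 fold change of 0.71 and an FDR of 0.0225. PIF6, listed with PIL1 and HFR1 above, had a log2 fold change of 1.05 and an FDR of 0.549. Of the photoreceptors, PHYB stood at 130.7 and 132.2 CPM in 30FR, against 73.8 and 79.9 CPM in 30WL. Its log2 fold change of 0.77 ± 0.08 had an FDR of 3.17e-05 and was below the fold threshold. PHYA had 166 and 167 CPM in 30FR, against 121 and 126 CPM in 30WL (log2 fold change 0.43, FDR 0.312). COP1, the 4 SPA genes, HY5 and HYH, which act downstream of the photoreceptors, all had log2 fold changes between 0.00 and 0.36, and 0 of the 7 were called.

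**Figure D2:**
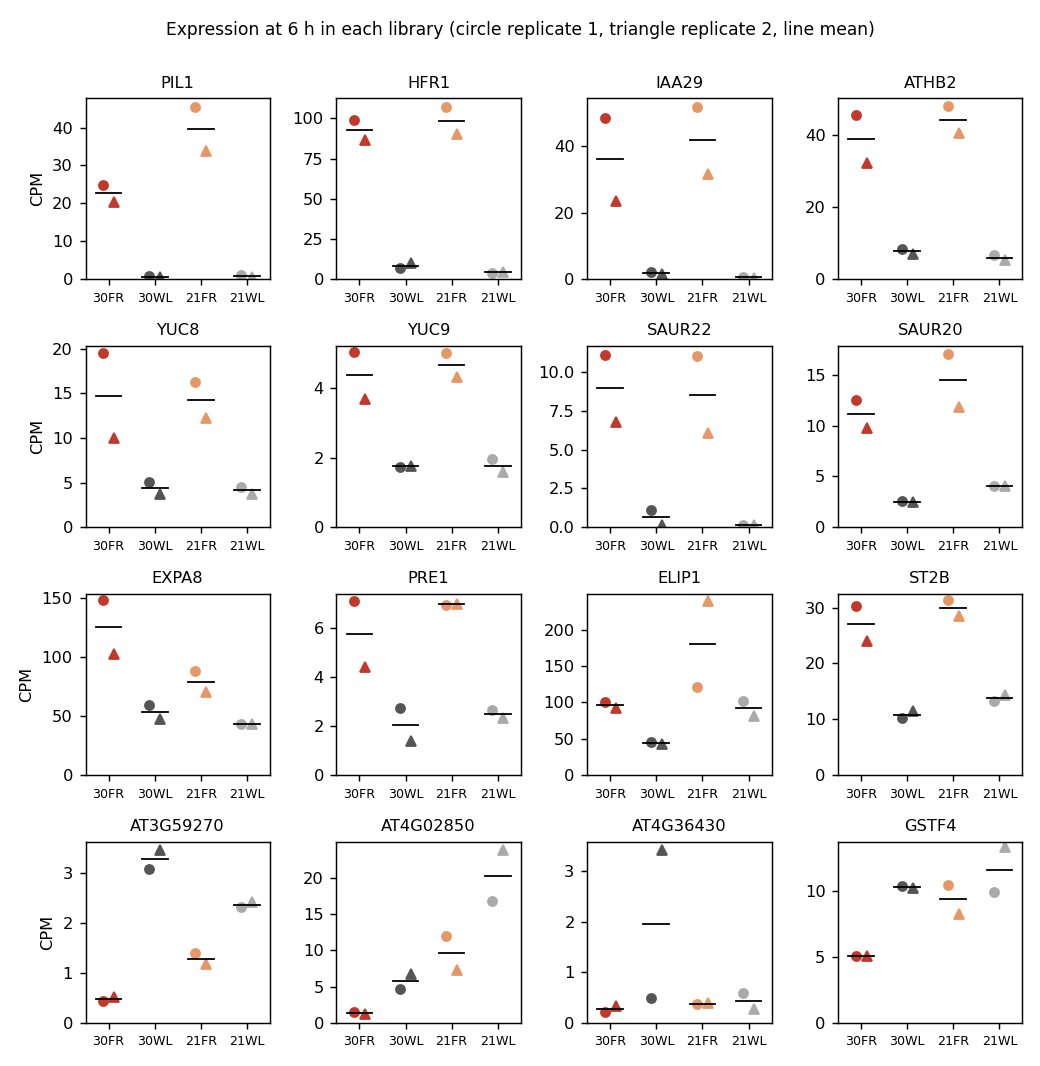
CPM (vertical axes, each from 0) of 16 genes in the 8 libraries of 6 h, in the order 30FR, 30WL, 21FR and 21WL, with a circle for replicate 1, a triangle for replicate 2 and a line at the mean. In the first 12 genes both libraries of 30FR lie above both of 30WL, and in the last 4 both lie below.

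Among auxin synthesis genes, YUC8 and YUC9 rose. They encode flavin monooxygenases that make indole-3-acetic acid, and were the 2 called of 10 measured auxin synthesis genes. YUC8 (AT4G28720) had 19.5 and 10.02 CPM in 30FR, against 5.07 and 3.74 CPM in 30WL, a 3.42-fold increase (log2 fold change 1.77 ± 0.28, FDR 0.00431). YUC9 (AT1G04180) had 5.04 and 3.71 CPM in 30FR, against 1.73 and 1.77 CPM in 30WL (log2 fold change 1.31 ± 0.28, FDR 0.036). YUC8 was not called without replicate 1 of 30FR (FDR 0.113) or replicate 2 of 30WL (FDR 0.245), and YUC9 was not called without replicate 1 of 30FR (FDR 0.38), replicate 1 of 30WL (FDR 0.217) or replicate 2 of 30WL (FDR 0.392). The aminotransferase gene TAA1, which acts one step earlier, stood at 20.2 and 21.2 CPM in 30FR, against 23.4 and 20.6 CPM in 30WL, which overlapped. The list's median log2 fold change was -0.06. Of 14 auxin transport genes, 0 were called. PIN3, an auxin efflux carrier that moves to the sides of hypocotyl cells in shade, had 130 and 124.5 CPM in 30FR, against 83.0 and 82.8 CPM in 30WL, with a log2 fold change of 0.62 ± 0.10 and an FDR of 0.00559. Of 8 genes for auxin conjugation or oxidation, 0 were called. GH3.5 (WES1 in the annotation; log2 fold change 0.83, FDR 0.0259) and GH3.6 (DFL1; 0.66, FDR 0.0323) were below the fold threshold, and GH3.17 had 56.1 and 57.4 CPM in 30FR, against 45.4 and 52.2 CPM in 30WL (FDR 0.677). AT1G14120, an oxidation gene of this list, went the other way, also below the fold threshold (log2 fold change -0.62, FDR 0.0202).

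Of 25 measured Aux/IAA genes, which encode repressors that auxin destabilises, IAA29 and IAA2 were higher and 0 lower, and the family's median log2 fold change was 0.31. IAA29 (AT4G32280) stood at 48.4 and 23.6 CPM in 30FR, against 2.103 and 1.44 CPM in 30WL, a 21.2-fold increase (log2 fold change 4.40 ± 0.39, FDR 8.71e-07). Its 2 libraries of 30FR differed by a wide margin and were both above 30WL. IAA2 (AT3G23030) had 94.2 and 77.1 CPM in 30FR, against 44.4 and 40.8 CPM in 30WL (log2 fold change 1.01 ± 0.16, FDR 0.00361), and lay just inside the fold threshold. IAA2 was not called without replicate 1 of 30FR (FDR 0.097) or replicate 2 of 30WL (FDR 0.135). IAA19 had 10.9 and 6.46 CPM in 30FR, against 5.44 and 3.28 CPM in 30WL, with a log2 fold change of 1.05 ± 0.30 and an FDR of 0.179.

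SAUR genes encode small proteins that activate proton pumps of the plasma membrane and promote cell expansion. Of 54 measured, 6 were higher and 0 lower, and their median log2 fold change was 0.56. All 6 (SAUR19, SAUR20, AT5G18030, SAUR22, SAUR23 and SAUR24) lie within 21536 bases of chromosome 5. They are near-identical copies, reads that fit more than 1 of them were not counted on any, and their single values are therefore uncertain. SAUR22 (AT5G18050) had 11.1 and 6.79 CPM in 30FR, against 1.11 and 0.131 CPM in 30WL. These were 434 reads in 30FR against 11 in 30WL, a ratio of 18.5 per unit of depth with a 95% interval of 10.3 to 37.4 for counting error only. The spread between libraries was wider than that, since the log2 fold change of SAUR22 was 6.02 without replicate 1 of 30WL and 2.99 without replicate 2 of 30WL, where it was not called (FDR 0.123). SAUR19 (AT5G18010) had 130 reads in 30FR against 6 in 30WL, a ratio of 10.2 with an interval of 4.55 to 28.2. SAUR20 (AT5G18020) was better covered in 30WL, at 12.5 and 9.80 CPM in 30FR, against 2.60 and 2.43 CPM in 30WL (log2 fold change 2.15 ± 0.29, FDR 5.01e-04). Of these 6, 4 were called without replicate 1 of 30WL, 3 without replicate 1 of 30FR and 0 without replicate 2 of 30WL.

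The CACATG element lies close to the start of both SAUR22 and SAUR19, 105 and 123 bases before it, and the stretch around it, shown for the likeness of these copies, differs at few places between them.
SAUR22, chr5:5975167-5975212, minus strand: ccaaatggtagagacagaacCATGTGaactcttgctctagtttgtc
SAUR19, chr5:5963503-5963548, minus strand: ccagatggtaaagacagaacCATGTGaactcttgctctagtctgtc

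Other growth genes were called 1 by 1. PRE1 (AT5G39860), an HLH protein that promotes elongation by sequestering inhibitors of growth, had 7.09 and 4.40 CPM in 30FR, against 2.72 and 1.38 CPM in 30WL (log2 fold change 1.57 ± 0.34, FDR 0.036). PRE1 was the 1 called of the 5 measured members of its list, which holds 4 PRE genes and IBH1, an HLH gene that restrains growth. All 5 had log2 fold changes above 0, as had 10471 of the 20145 genes tested, and their median, 0.68, was the value of IBH1 itself. PRE1 was called in the fit without replicate 2 of 30FR and not without replicate 1 of 30FR (FDR 0.429), replicate 1 of 30WL (FDR 0.0507) or replicate 2 of 30WL (FDR 0.564). EXPA8 (AT2G40610), an expansin that loosens the cell wall, was the 1 called of 25 expansins, at 148 and 102 CPM in 30FR, against 59.2 and 47.2 CPM in 30WL (log2 fold change 1.24 ± 0.22, FDR 0.00938). EXPA8 was not called without replicate 1 of 30FR (FDR 0.231) or replicate 2 of 30WL (FDR 0.295). Of 29 xyloglucan endotransglucosylase genes, which remodel the wall, 0 were called. GA2OX1 (AT1G78440), whose product inactivates gibberellins, was the 1 called of 10 gibberellin oxidases, at 2.41 and 2.35 CPM in 30FR, against 0.989 and 0.656 CPM in 30WL. Its FDR was 0.038, and it was called in none of the 4 fits with a library left out, with FDRs of 0.108 to 0.541. The median of the ABA, cold and dehydration list was 0.52 with 0 of 14 called, against 1.76 without replicate 1 of 30WL and 0.02 without replicate 2. In the lists of brassinosteroid, ethylene and cytokinin genes 0 of 9, 0 of 13 and 0 of 11 were called.

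ELIP1 (AT3G22840), an early light-induced protein of the thylakoid, rose as well, with 100.01 and 92.0 CPM in 30FR, against 45.5 and 42.0 CPM in 30WL (log2 fold change 1.14 ± 0.24, FDR 0.0337). Its partner ELIP2 had 24.8 and 24.3 CPM in 30FR, against 12.1 and 14.6 CPM in 30WL (log2 fold change 0.86, FDR 0.118). ELIP1 was called in none of the 4 fits with a library left out, with FDRs of 0.0844 to 0.376. BBX29 (AT5G54470), a B-box zinc finger gene, was the 1 called of 13 B-box genes, at 8.16 and 4.18 CPM in 30FR, against 2.23 and 2.62 CPM in 30WL (log2 fold change 1.31 ± 0.28, FDR 0.0372), and was not called without replicate 1 of 30FR (FDR 0.581), replicate 1 of 30WL (FDR 0.257) or replicate 2 of 30WL (FDR 0.335). Of 12 chlorophyll synthesis genes 0 were called, with a median log2 fold change of -0.08, and of 20 flavonoid genes 0, with a median of 0.27. Of the 22 clock genes, 0 were called.

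ST2B (AT5G07000), a sulfotransferase gene, was called in all 4 fits with a library left out. It had 30.2 and 24.0 CPM in 30FR, against 10.1 and 11.5 CPM in 30WL (log2 fold change 1.31 ± 0.16, FDR 1.33e-04). ELI3-1 (AT4G37980), annotated as cinnamyl alcohol dehydrogenase 7, had 79.9 and 67.4 CPM in 30FR, against 33.9 and 37.5 CPM in 30WL (log2 fold change 1.04 ± 0.15, FDR 0.00117). Its log2 fold change fell below 1 without replicate 1 of 30FR (0.91) and without replicate 1 of 30WL (0.97). FLP1 (AT4G31380), annotated as a flowering-promoting factor-like protein, had 12.5 and 8.84 CPM in 30FR, against 2.103 and 1.31 CPM in 30WL (log2 fold change 2.71 ± 0.44, FDR 0.00458), and was not called without replicate 1 of 30FR (FDR 0.0714) or replicate 2 of 30WL (FDR 0.271). The other higher genes were named after their values were seen. Among them AT5G02540, annotated as a Rossmann-fold protein, differed most, at 34.3 and 10.2 CPM in 30FR, against 2.72 and 2.36 CPM in 30WL (log2 fold change 3.14 ± 0.57, FDR 0.0126). It was called in 1 of the 4 fits with a library left out, and its log2 fold change ranged over them between 2.02 and 3.78, with an FDR of up to 0.309. ADS4, AT5G44260, AT5G02760, AT3G13980, AT3G21330, AT5G12050, AT5G01740, AT5G54585, RTFL16 and AT3G62070 had log2 fold changes from 2.25 for ADS4 to 1.04 for RTFL16. Of these, ADS4, AT5G44260, AT5G01740 and AT3G62070 were called in none of the 4 fits with a library left out, and none of the others in more than 2. The log2 fold change of AT5G02760 was 0.92 without replicate 1 of 30FR, and that of RTFL16 0.69 without replicate 2 of 30WL. The lowest over these fits was 0.93 for AT5G54585 and 0.82 for AT3G62070.

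The study's list of the genes most strongly bound by PIF7 in 21FR held 11 of the 33 increases, and most genes of that list were not called. Of the 200 genes that the study lists as most strongly bound by PIF7 in 21FR, 167 were tested here, which is 0.829% of all genes. That list comes from chromatin immunoprecipitation in other plants, pif mutant seedlings carrying tagged PIF7, after a shorter treatment. In the study, PIF7 bound much the same genes in 30WL, so that the list does not set 30FR apart from 30WL. Of the 167, 11 were higher (6.59%) and 0 lower, against 0.164% and 0.0496% of all genes tested, and their median log2 fold change was 0.13. They made up 33.3% of the 33 higher genes and were PIL1, IAA29, HFR1, FLP1, YUC8, AT1G02350, AT5G12050, BBX29, YUC9, RTFL16 and IAA2. The study assigned peaks to genes by position, upstream or within the gene. Neighbours such as HFR1 and AT1G02350 can therefore be listed for the same peak. The 6 SAUR genes and ATHB2 were not on that list. Of the 11, 7 were called without replicate 1 of 30WL, and 3 each without replicate 1 of 30FR or replicate 2 of 30WL.

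**Figure D3:**
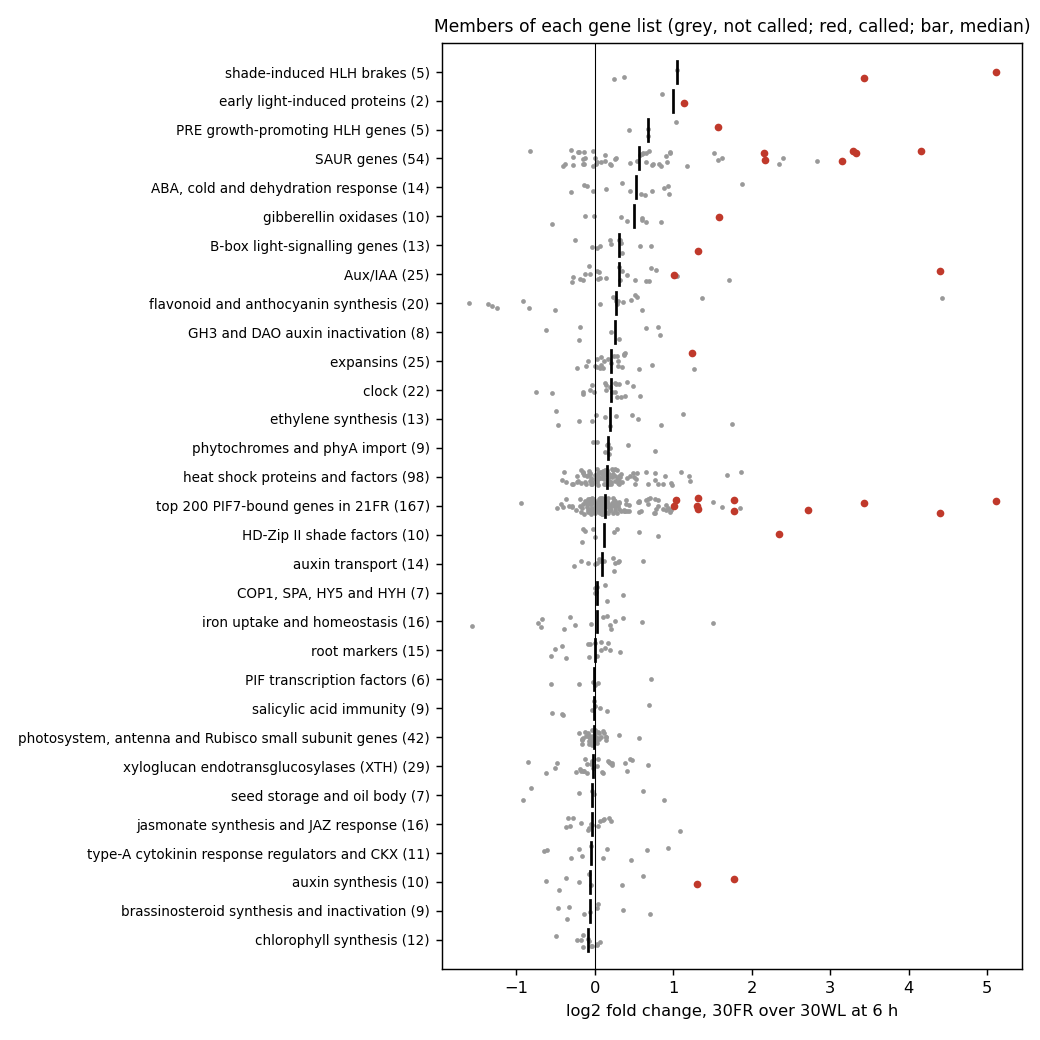
Log2 fold change of 30FR over 30WL at 6 h (horizontal axis) for the measured members of each gene list (number of members in brackets), with called members in red, others in grey and a bar at each list's median. Of the lists drawn, which leave out that of the genes the study names, PIF7-bound genes (11) and SAUR genes (6) hold the most called members, and the medians of the lists with none lie between -0.08 and 0.27, that of the ABA, cold and dehydration list (0.52) excepted.

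Heat shock genes were not called at 6 h. Of 98 measured, 0 passed the test, with a median log2 fold change of 0.15 beside 0.01 over all genes. HSFA2, a heat shock transcription factor, had 5.93 and 9.32 CPM in 30FR, against 3.59 and 4.13 CPM in 30WL (log2 fold change 0.97 ± 0.78, FDR 0.838). HSP90.1 had 117 and 180 CPM in 30FR, against 70.7 and 103.5 CPM in 30WL (log2 fold change 0.76, FDR 0.728), and HSP90.2 (HSP81-2 in the annotation) 280 and 314 CPM in 30FR, against 232 and 272 CPM in 30WL (log2 fold change 0.23, FDR 0.887). Of the same list, 8 genes were lower in 30FR than in 30WL at 3 h and 0 higher. Of all genes tested, 0.194% were lower and 0.432% higher at 3 h.

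The 10 genes that fell were of mixed kinds, and none belonged to a list of growth or light genes used here. AT3G59270, annotated as an FBD-like domain protein, was the most firmly changed, at 0.446 and 0.514 CPM in 30FR, against 3.09 and 3.48 CPM in 30WL. These were 24 and 78 reads, and the log2 fold change was -2.76 ± 0.31 with an FDR of 3.72e-05. AT4G36430, annotated as a peroxidase, had 0.223 and 0.330 CPM in 30FR, against 0.495 and 3.41 CPM in 30WL, so that its call rested on replicate 2 of 30WL. Without that library its log2 fold change was -0.80 with an FDR of 0.899. AT4G02850 had 1.43 and 1.25 CPM in 30FR, against 4.70 and 6.69 CPM in 30WL (log2 fold change -2.13 ± 0.42, FDR 0.0218), and AT3G59340, annotated as a solute carrier family 35 protein, 4.996 and 3.999 CPM in 30FR, against 12.2 and 15.4 CPM in 30WL (log2 fold change -1.64 ± 0.27, FDR 0.00559). AT2G32550, annotated as an Rcd1-like protein, was the most abundant, with 17.6 and 20.2 CPM in 30FR, against 39.8 and 42.9 CPM in 30WL (log2 fold change -1.13 ± 0.20, FDR 0.0101). GSTF4, a glutathione S-transferase gene, had 5.09 and 5.06 CPM in 30FR, against 10.4 and 10.2 CPM in 30WL (log2 fold change -1.02 ± 0.20, FDR 0.0202). RL4, a RAD-like gene, AT3G02500, AT2G35743 and AT2G01913 had log2 fold changes of -1.27, -1.33, -1.61 and -1.11. Of the 10, GSTF4, RL4, AT2G35743 and AT4G02850 were called in none of the 4 fits with a library left out, with FDRs from 0.0557 to 0.441.

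The same light change at 21 °C gave a larger set of calls. Its contrast shares no library with that at 30 °C, whereas the estimate of the spread comes from 1 fit of all libraries. In 21FR against 21WL at 6 h, 66 genes were higher and 8 lower (0.328% and 0.0397% of the genes tested). Reads counted on genes were 7606788 and 14924687 in 30WL, against 20489012 and 18618037 in 21WL. In low R/FR they were 21762298 and 26957088 in 30FR, against 19759764 and 28170966 in 21FR. The part of depth in the numbers of calls was not tested. Of the 33 genes higher at 30 °C, 30 were also higher at 21 °C, which is 90.9% of the 33 and 45.5% of the 66. The 3 that were not called there were EXPA8 (88.0 and 70.2 CPM in 21FR, against 43.2 and 43.6 CPM in 21WL, FDR 0.0665), ELIP1 (121.5 and 239 CPM in 21FR, against 102 and 81.2 CPM in 21WL, log2 fold change 0.98) and AT3G62070 (FDR 0.648). All 33 were above 0 at 21 °C, as were 49.9% of all genes tested. Of the 10 genes lower at 30 °C, 3 were lower at 21 °C (30% of the 10 and 37.5% of the 8), namely AT2G32550, AT3G02500 and AT3G59340, and all 10 were below 0.

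Whether the response at 30 °C differed from that at 21 °C was tested by the interaction of light and temperature. No gene was called (edgeR's quasi-likelihood test, smallest FDR 0.177, with 752 of 20145 genes at an unadjusted p under 0.05), and neither DESeq2 nor edgeR's likelihood ratio test called any. Without replicate 1 of 30FR, 1 gene was called, AT3G16800 (difference -1.16, FDR 0.00856). The response of 24 of the 33 higher genes was smaller at 30 than at 21 °C, with a median difference of -0.36 on the log2 scale beside a median standard error of 0.39. Over all 20145 genes tested, the difference was above 0 in 10243. For all 10 lower genes the fall was larger at 30 than at 21 °C. The difference had an unadjusted p under 0.05 in 5 of these 10 genes and in 3 of the 33. For IAA29 the difference was -1.81 ± 0.69, its levels at 21 °C being 51.6 and 31.5 CPM in 21FR, against 0.642 and 0.450 CPM in 21WL. For HFR1 it was -1.065 ± 0.37, with 107 and 90.07 CPM in 21FR, against 4.10 and 4.61 CPM in 21WL. PIL1 had 45.4 and 33.8 CPM in 21FR, against 1.14 and 0.563 CPM in 21WL, and its difference was -0.39 with an unadjusted p of 0.473. For YUC8 the difference was 0.00 ± 0.39. For AT3G59270 the difference was -1.88 ± 0.41, with 1.41 and 1.17 CPM in 21FR, against 2.32 and 2.42 CPM in 21WL. The smallest FDR of this difference over the 43 genes was 0.9999, and the genes were chosen by their response at 30 °C.

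**Figure D4:**
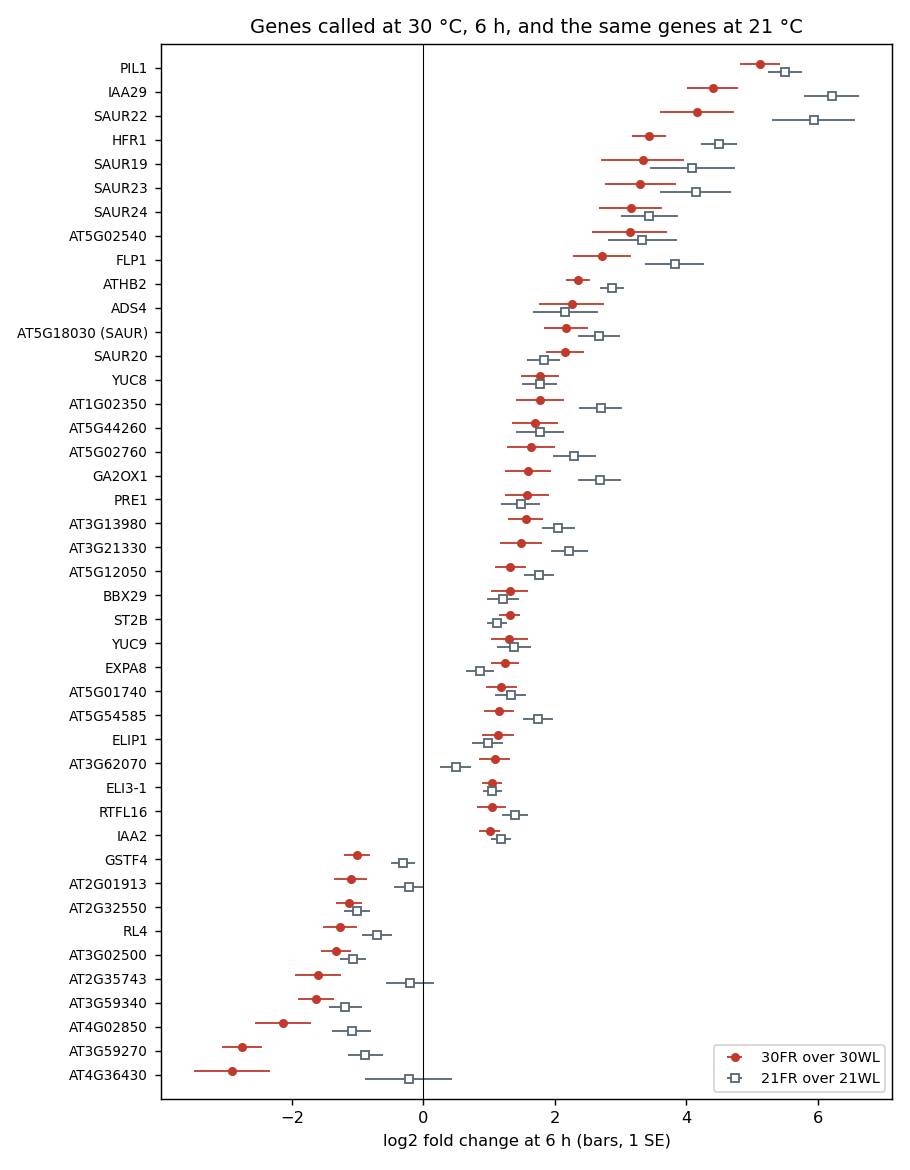
Log2 fold change at 6 h with 1 SE on each side (horizontal axis) for the 43 genes called at 30 °C, with red circles for 30FR over 30WL and open squares for 21FR over 21WL. All 33 higher genes are also above 0 at 21 °C, and in 24 of them the circle lies to the left of the square. Over all 20145 genes tested, the log2 fold change was larger at 30 °C in 10243.

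The light response at 30 °C was measured at 4 times, and most of the genes higher at 6 h were also higher at 1 and 3 h. In 30FR against 30WL, 65 genes were higher and 5 lower at 1 h (0.323% and 0.0248%), 87 and 39 at 3 h (0.432% and 0.194%), 33 and 10 at 6 h, and 23 and 68 at 24 h (0.114% and 0.338%). Of the 33 genes higher at 6 h, 25 were higher at 1 h, 29 at 3 h and 9 at 24 h, in libraries that share none with those of 6 h. The 9 that were higher at all 4 times were PIL1, HFR1, IAA29, ATHB2, FLP1, SAUR19, SAUR22, SAUR23 and AT1G02350, the last named after its values were seen. PIL1 had log2 fold changes of 5.36, 4.43, 5.12 and 4.76 at 1, 3, 6 and 24 h, and HFR1 of 2.32, 2.93, 3.44 and 3.19. YUC8 had 1.06, 2.18, 1.77 and 0.23, and EXPA8 1.70, 1.52, 1.24 and -0.11. ELIP1 and AT3G62070 were called higher at 6 h alone, ELIP1 with log2 fold changes of 0.50, 0.52, 1.14 and 0.31. The median log2 fold change of the 33 genes was 2.16 at 1 h, 2.14 at 3 h, 1.64 at 6 h, where they were chosen, and 0.69 at 24 h.

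The differences between times were tested directly. Between 6 and 1 h 0 genes differed (823 at an unadjusted p under 0.05, with 3 genes called by DESeq2 and 3 by the likelihood ratio test), between 6 and 3 h 1 gene, and between 6 and 24 h 20, all with a larger log2 fold change at 6 h (0.0993% of the genes tested). None of these 20 was called at 6 h, and 17 were lower in 30FR than in 30WL at 24 h. The count was 6 without either replicate of 30WL, 4 without replicate 1 of 30FR and 41 without replicate 2 of 30FR. Of the 20, 5 belonged to the photosystem and antenna list, led by the 3 LHCB2 genes of the light-harvesting antenna of photosystem II, which are close copies of each other. A further 4 of the 20, LHB1B1, LHB1B2, CAB2 and CAB3, also encode antenna proteins (LHCB1) and are outside that list because of their symbols. They were named after their values were seen. LHCB2.3 stood at 1303 and 650 CPM in 30FR, against 1088 and 1017 CPM in 30WL at 6 h, and at 120 and 134 CPM in 30FR, against 766 and 620 CPM in 30WL at 24 h. The conditions overlapped at 6 h and were far apart at 24 h.

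**Figure D5:**
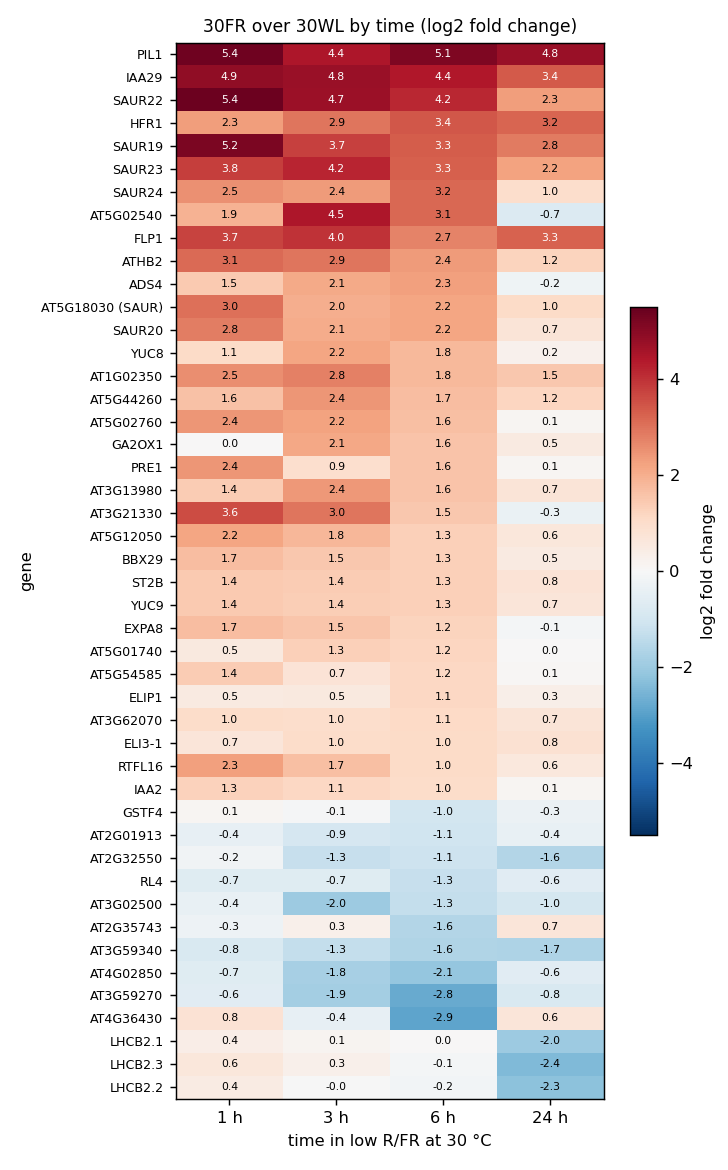
Log2 fold change of 30FR over 30WL at 1, 3, 6 and 24 h (columns, colour scale and printed values) for the 43 genes called at 6 h, in the order of their change at 6 h, and the 3 LHCB2 genes (rows). The first rows, PIL1, IAA29, SAUR22 and HFR1, were called higher at all 4 times, whereas SAUR24 and AT5G02540 further down were not. Most of the middle genes are near 0 at 24 h, and the LHCB2 genes are near 0 at 6 h and low at 24 h.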

How the data were processed

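RNA-seq libraries of wild-type whole seedlings were made with a stranded poly(A) kit. The authors aligned the reads with STAR 2.5.4 to TAIR10, counted them per gene on the matching strand with HTSeq 0.6.0 and deposited raw counts for 33602 genes. Reads that aligned to more than 1 place were counted on no gene. The 5 summary lines of the table, among them reads on no gene (2.47 to 3.58%), stayed out of library sizes. A second deposited table gives a normalized signal for 19718 genes, made by the authors with edgeR 3.16.5, and served only to compare its scale with the CPM used here.

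The 20145 genes above 1 CPM in 2 or more of the 32 libraries entered a single edgeR 4.0.16 fit of 16 groups, scaled by TMM. Each contrast was tested by quasi-likelihood, with Benjamini-Hochberg adjustment over all of these genes. Standard errors are the log2 fold change without prior count over the square root of F. Intervals cover counting error only (exact binomial, 95%). DESeq2 1.42.0 and other settings served as alternatives. On counts simulated for 30FR over 30WL at 6 h (20145 genes), 67 of 67 genes with a log2 fold change of 1.5 were called and 1 unchanged gene. The changed genes were picked above a minimum mean CPM, and each was given the spread of the common trend. Genes with few reads or a wider spread were therefore not covered. The genes called higher in the data had a median of 2.54 CPM in 30WL. Replicates of 30FR differed by more than counting noise (chi-square of 21.0 per degree of freedom), as did those of 30WL (8.13).

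Gene lists followed textbook families, symbols in RefSeq (TAIR10.1) and the study's PIF7-bound genes. The genes and lists were chosen with earlier results of these data known, and the patterns for heat shock and photosystem genes were narrowed after the calls had been seen. Genes named were the 12 with the smallest FDR called in each direction, up to 4 called members per list and direction, genes the study names, and up to 3 per direction that differed between times. Members of lists of 15 or fewer genes may be given as values, and all others were picked with their values known. RefSeq TAIR10.1 gave names, positions and sequences; the counts were made on TAIR10, and no coordinate is taken from them. LHCB1 genes carry other symbols and are outside the photosystem list.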

Additional observations from a re-analysis of the deposited data

Results flagged for a closer look

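The response to low R/FR at 30 °C differed between 6 and 24 h in 20 genes and between 6 and 3 h in 1 gene, by edgeR's test of the difference itself (FDR under 0.05 and absolute log2 difference over 1). The 3 genes with the smallest FDR at 24 h were LHCB2.1, LHCB2.2 and LHCB2.3, with differences of 2.01, 2.11 and 2.34 (FDR 0.002 for each). LHCB2.1 stood at 1275 and 838 CPM in 30FR, against 1020 and 1059 CPM in 30WL at 6 h, and at 151 and 167 CPM in 30FR, against 716 and 547 CPM in 30WL at 24 h. LHCB2.2 stood at 1062 and 674 CPM in 30FR, against 960 and 986 CPM in 30WL at 6 h, and at 88.2 and 108 CPM in 30FR, against 549 and 400.5 CPM in 30WL at 24 h. The gene that differed from 3 h was AT1G28610, annotated as a GDSL-like lipase, with a difference of 1.38 ± 0.21 (FDR 0.0241). It stood at 20.1 and 19.7 CPM in 30FR, against 27.1 and 22.6 CPM in 30WL at 6 h, and at 6.24 and 6.03 CPM in 30FR, against 21.6 and 18.2 CPM in 30WL at 3 h. AT1G28610 was not called for this difference without replicate 1 or 2 of 30FR or replicate 2 of 30WL.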

How the results depend on the processing

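With FDR alone, 64 genes were higher and 21 lower in 30FR than in 30WL at 6 h, 164 genes were called in 21FR against 21WL, 158, 357 and 336 in 30FR against 30WL at 1, 3 and 24 h, and 36 for 6 h minus 24 h. DESeq2 called 16 genes lower at 6 h and 3 for 6 h minus 1 h and for 6 h minus 3 h. The likelihood ratio test called 22 lower at 6 h, 3 for 6 h minus 1 h, 2 for 6 h minus 3 h and 46 for 6 h minus 24 h. With the 8 libraries of 6 h alone, 7 genes were higher, 2 lower and 22 called at 21 °C, and with the 4 libraries of 30FR and 30WL alone 2 were higher and 0 lower (1262 at an unadjusted p under 0.05). With size factors, no filter or a filter of 10 counts, 32 to 38 were higher and 9 to 12 lower.

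Leaving out 1 library gave 6 to 37 higher and 1 to 6 lower genes at 6 h, 0 or 1 for the interaction, 0 to 1 for 6 h minus 3 h, 4 to 41 for 6 h minus 24 h, and 32 to 67 at 21 °C. Over these fits the log2 fold change of PIF4 lay between -0.035 and 0.105, of LHCB2.1 between -0.31 and 0.29, of LHCB2.2 between -0.53 and 0.13 and of LHCB2.3 between -0.70 and 0.31. None of these 4 genes was called at 6 h. No called gene turned its direction under any alternative run. The cause of these changes was not tested.

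The replicate numbers were not treated as pairs: replicate differences of the 4 conditions at 6 h correlated between -0.50 and 0.42. With the replicate number as a block, 28 genes were higher and 10 lower at 6 h, which include 35 of the 43 calls without it. The 8 others were YUC9, GA2OX1, IAA2, ELIP1, BBX29, AT5G44260, AT2G01913 and AT4G36430. Under the block, 10 genes differed for 6 h minus 24 h and 0 for 6 h minus 3 h. Deposited normalized values were 1.01 times the CPM used here in all 6 h libraries of 30FR and 30WL. Of the higher genes, 8 had a mean under 1 CPM in 30WL and so rested on few reads there. The part of depth in their values was not tested.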
